A study of Mus musculus with 2 samples.

Results

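The genes described here are 35 genes of DNA replication and of the G1/S step of the cell cycle, taken from a list of gene symbols, and all 35 were among the 32285 genes counted. They comprised 9 genes of origin licensing and the replicative helicase (Mcm2 to Mcm7, Cdc6, Cdt1, Orc6), 3 of helicase activation (Cdc45, Gins1, Gins2), 6 of the sliding clamp, its loader and the first polymerase (Pcna, Rfc3, Rfc4, Pola1, Prim1, Rpa2), 3 of flap processing, ligation and clamp binding (Fen1, Lig1, Pclaf), 5 of nucleotide supply (Tyms, Rrm1, Rrm2, Dut, Tk1), 4 of chromatin (Chaf1a, Chaf1b, Slbp, Uhrf1) and 5 of control (E2f1, Ccne1, Ccne2, Clspn, Dtl). They lie on 15 chromosomes, and Pola1 is the member on the X chromosome. The libraries were 2, each made from CD45+CD90.2+ cells (leukocytes carrying the T cell marker Thy1.2) sorted from tumours of C57BL/6 mice, a standard inbred strain. One carried the genotype label WT and the other Dapl1-KO. The age and number of the mice, the tumour and the allele behind the second label are not given in the sources used here. The study's stated question is how T cells in tumours differ without Dapl1. With 1 library per label nothing below is tested, and the intervals are exact 95% intervals that cover counting error only.

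A cell copies its DNA once per division. In G1 the origin recognition complex with Cdc6 and Cdt1 loads the ring of Mcm2 to Mcm7 proteins onto DNA, and at the start of S phase Cdc45 and the GINS proteins turn that ring into a running helicase. Polymerases, the Pcna clamp and the enzymes that make deoxynucleotides follow. Many of these genes are switched on together by E2F factors, of which E2f1 is one. This happens when cyclins and their kinases, cyclin E among them, relieve the block by the retinoblastoma protein. Resting naive CD8 T cells are outside the cycle, and CD8 T cells that have met antigen divide; in tumours many of the latter carry the inhibitory receptors PD-1 (Pdcd1) and TIM-3 (Havcr2).

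Because these genes are known as a co-regulated group, their promoters were read for the 8-letter words TTTCCCGC, TTTCGCGC, TTTGCCGC and TTTGGCGC, forms of the E2F recognition sequence, on both strands. Of the 35 members, 31 had an entry in the RefSeq promoter table for GRCm38.p6, which gives the 250 bases before and 50 bases after each annotated start; Mcm4, Gins1, Gins2 and Ccne2 were not matched. A word was present for 13 of the 31 (41.9%) against 2.61% of the 27025 genes of the table. It was not particular to the members. In lists of related genes it was present for 5 of 11 of S phase chromatin and repair (45.45%) and 7 of 18 of cell cycle control (38.9%). It was present for 7 of 23 other replication factors (30.4%) and for 0 of 12 genes of other nucleotide supply. The stretches below are shown because they hold the word upstream of the start in members that differ widely in level and in behaviour. The words are in capitals, and each stretch reads 5′ to 3′ on the strand of its gene, with GRCm38 coordinates.
Cdc6, chr11:98908002-98908031, plus strand: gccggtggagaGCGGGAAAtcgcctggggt
Mcm5, chr8:75109349-75109378, plus strand: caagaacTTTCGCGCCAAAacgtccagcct
Mcm7, chr5:138172030-138172059, minus strand: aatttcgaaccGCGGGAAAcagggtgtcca
Pola1, chrX:93632275-93632304, minus strand: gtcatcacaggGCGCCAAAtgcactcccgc
Dtl, chr1:191575545-191575574, minus strand: caatcagaaagcgtgacgtcagTTTGGCGC
Rfc3, chr5:151651209-151651238, minus strand: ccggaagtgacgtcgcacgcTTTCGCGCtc
Uhrf1, chr17:56304117-56304146, plus strand: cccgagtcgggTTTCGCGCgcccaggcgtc
Mcm6, chr1:128359706-128359885, minus strand: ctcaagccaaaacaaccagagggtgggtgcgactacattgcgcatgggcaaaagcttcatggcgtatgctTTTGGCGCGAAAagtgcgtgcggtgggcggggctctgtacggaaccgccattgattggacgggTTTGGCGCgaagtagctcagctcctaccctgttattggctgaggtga
In Mcm5 the capitals hold overlapping words of both strands, TTTCGCGC and GCGCCAAA. Mcm6 holds 3 words, of which a pair overlaps in the same way. In Dtl the word ends on the last base before the start.

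The word did not go with all members. Rrm2, Pcna, Tyms, Dut, Cdc45 and E2f1 itself held none of the 4 words in this window, which says only that these letters are absent there. CCAAT, a second common promoter element, was present in 20 of the 31 members (64.5%) against 41.1% of all genes. TTTGAA, the core of the element found at many genes of mitosis, was present in 3 of 31 members (9.68%) against 20.2% of all genes. In a list of 25 genes of G2 and mitosis the picture differed. Of 22 matched, 1 held an E2F word (4.55%, beside 2.61% of all genes). TTTGAA was present in 14 of the 22 (63.6%, beside 20.2% of all genes). CCAAT was above its share of all genes there as well, being present in 17 of the 22 (77.3%). A match of letters is a description and not a bound site.

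Facts of the libraries bear on all that follows. Unique molecular identifiers (UMIs, each standing for 1 captured transcript) numbered 154408101 over 16673 barcodes in the WT-labelled library and 206322042 over 19662 in the Dapl1-KO-labelled one. The libraries shared 13132 barcodes, and the smaller copy of each was left out (36.0% and 36.4% of barcodes), which with the cell filters left 9865 and 11156 cells with median depths of 7895 and 9190.5 UMIs. Whether reads passed from one library to the other, as in index swapping, was not tested, and it bears on each difference between the labels and on the sex-linked values below. Dapl1 itself, read here from 3′ tags that need not lie in a deleted part, was at 40.2 CPM (UMIs of a gene per 1000000 UMIs of the group) in CD8 cells of the WT-labelled library and 31.5 in the Dapl1-KO-labelled library, and at 167 and 164 CPM in naive-gene CD8 cells, so the targeted gene does not check the label. The libraries also differed in sex-linked genes: 71.1% of CD8 cells labelled WT had Xist and no Y-linked UMI, and 76.4% of those labelled Dapl1-KO had a Y-linked UMI and no Xist. The label, the library and this pattern cannot be told apart in the pooled values.

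Cells were gated on raw UMIs of lineage genes. The CD8 gate held 4594 and 5677 cells (library labelled WT first, here and below), the regulatory T gate (Foxp3) 665 and 753, the CD4 gate 592 and 572, and the NK gate 386 and 563. Outside the genes used to gate, Trac was detected in 88.6% and 94.6% of CD8 cells and in 83.4% and 93.9% of CD4 cells. Ikzf2 was detected in 93.1% and 96.3% of regulatory T cells, but also in 47.4% and 58.2% of CD8 cells. Il2ra was detected in 43.8% and 49.3% of regulatory T cells. Eomes was detected in 58.8% and 61.6% of NK cells, and in 40.2% and 38.9% of CD8 cells. NK cells also had Trbc1 in 91.2% and 93.1% of cells and Trac in 16.3% and 18.8%. CD8 cells were divided into granzyme D to G rich cells (402 and 598), PD-1 TIM-3 cells with both receptors (1190 and 1781), PD-1 only (792 and 1265), TIM-3 only (231 and 209) and cells with neither, of which 1330 and 913 were naive-gene cells (with UMIs of at least 2 genes of a short list of naive T cell genes, Ccr7 and Lef1 among them) and 649 and 911 were others. Depth differed strongly between these states, with median UMIs of 33119.5 and 31469.5 in granzyme D to G rich cells, 19290.5 and 20282 in PD-1 TIM-3 cells, 9845 and 10333 in PD-1 only cells, and 7868 and 9365 in naive-gene cells. Since a deeper cell has more chance to show a UMI of Pdcd1 or Havcr2, depth and state cannot be told apart in these gates.

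Together the 35 genes took 1846 CPM (interval 1836 to 1856) of CD8 transcripts in the WT-labelled library and 2583 CPM (2573 to 2593) in the Dapl1-KO-labelled library. Regulatory T cells stood at 2000 and 1982 CPM, CD4 cells at 1205 and 1264, and NK cells at 785 and 978. Regulatory T cells had the highest level of the 4 gates in one library and CD8 cells in the other. Within CD8 cells the levels ran from 477 and 634 CPM in naive-gene cells through 881 and 959 in other cells with neither receptor, 1444 and 1945 in TIM-3 only cells and 1508 and 2282 in PD-1 only cells, to 2421 and 3123 in PD-1 TIM-3 cells and 2375 and 3054 in granzyme D to G rich cells. In the WT-labelled library the intervals of TIM-3 only cells (1398 to 1490) and PD-1 only cells (1484 to 1533) overlapped. The plot of summed levels shows this order in both libraries and the regulatory T bars side by side.

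**Figure D1:**
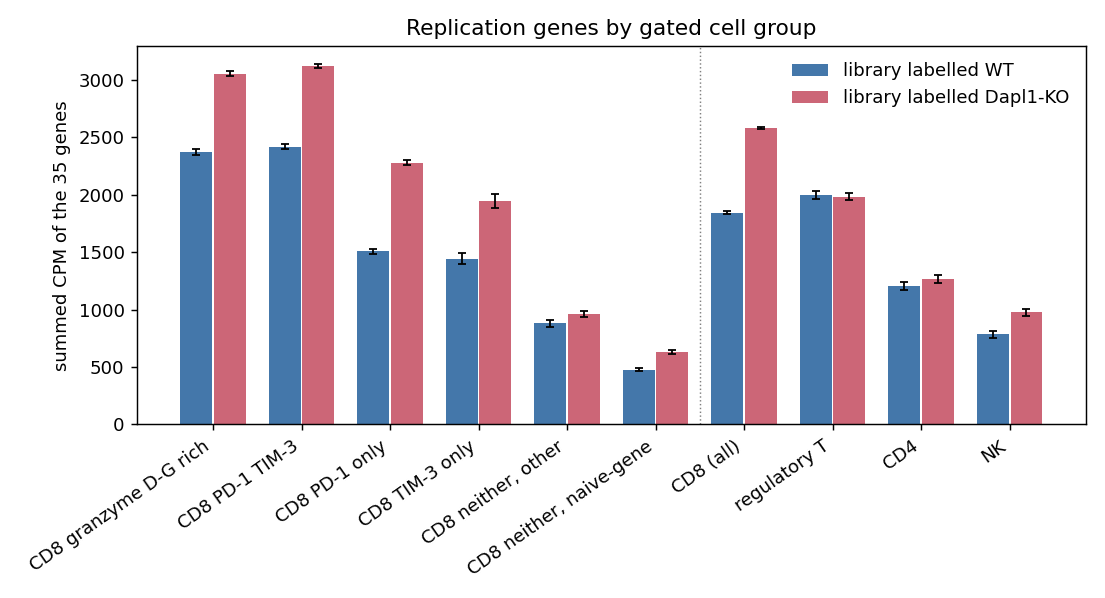
Summed CPM of the 35 replication genes (y axis, linear from 0) in 6 CD8 states and 4 gates (x axis) in the WT-labelled library (blue) and the Dapl1-KO-labelled library (red); error bars are exact 95% Poisson intervals of the counts. CD8 cells stand at 1846 and 2583 CPM and regulatory T cells at 2000 and 1982.

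PD-1 only cells stood above cells with neither receptor by a log2 ratio of the summed members of 1.37 (1.33 to 1.40) in the WT-labelled library and 1.60 (1.57 to 1.63) in the Dapl1-KO-labelled library. Of the members at 10 CPM or more, 23 of 30 and 25 of 31 were at least 2-fold higher, beside 10.0% and 7.75% of all genes. From counts and gates at 3000 UMIs per cell this step was 0.71 and 0.57, and with shared barcodes left out 0.51 and 1.05. PD-1 TIM-3 cells stood above PD-1 only cells by 0.68 and 0.45, with 0 of 32 and 0 of 33 members past 2-fold beside 0.951% and 0.469% of all genes. The second step also moved with depth: among cells with 10000 to 20000 UMIs it was 0.35 and 0.0021, and with gates and counts taken at 3000 UMIs per cell it was -0.032 and -0.091. Granzyme D to G rich cells were level with PD-1 TIM-3 cells, at -0.028 and -0.032, with 0 of 33 members past 2-fold in each library beside 1.0% and 0.733% of all genes, and the sign of this small difference turned with the setting.

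Licensing and helicase genes showed the widest spread of behaviours. Mcm6, a subunit of the helicase ring, was at 31.2 and 48.1 CPM in naive-gene cells and 116 and 137 CPM in PD-1 TIM-3 cells. Mcm3, another subunit, went from 14.5 and 24.8 to 80.1 and 97.9 CPM between the same states. Cdc6, which loads the ring and is kept very low outside the cycle, went from 0.52 and 1.40 to 9.65 and 14.5 CPM, a ratio of 18.5 and 10.3. Cdt1, its partner in loading, was instead at 20.8 and 17.6 CPM in naive-gene cells and 16.8 and 19.7 CPM in PD-1 TIM-3 cells, and it was between 11.8 and 20.9 CPM in every state, gate and library. Cdt1 was thus the member with the flattest profile, and its transcript was as abundant in NK cells (20.2 and 19.5 CPM) as in CD8 cells (18.0 and 18.8).

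Helicase activation, clamp and polymerase genes followed the state order. Cdc45, which joins the ring at firing, went from 1.13 and 3.67 CPM in naive-gene cells to 19.6 and 27.3 CPM in PD-1 TIM-3 cells, and Gins2, of the GINS complex, from 2.86 and 5.07 to 34.3 and 40.6 CPM. Gins1 stayed under 10 CPM in every CD8 state. Pcna, the sliding clamp, was readable in every group, from 64.6 and 71.6 CPM in naive-gene cells to 230 and 289 CPM in PD-1 TIM-3 cells, a ratio of 3.57 and 4.04. Rpa2, a subunit of the protein that coats single-stranded DNA, gave a similarly shallow ratio of 3.49 and 3.29, and it was lower in regulatory T cells (48.8 and 41.4 CPM) than in CD8 cells (77.0 and 93.0).

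Clamp partner and nucleotide genes held further steep profiles. Pclaf, a small protein that binds Pcna, was at 7.46 and 30.4 CPM in naive-gene cells and at 244 and 382 CPM in PD-1 TIM-3 cells, a ratio of 32.7 and 12.6. Lig1, which seals Okazaki fragments, was at 102 and 111 CPM in regulatory T cells and at 61.8 and 97.0 in CD8 cells. Dut, which removes dUTP, and Tyms, which makes dTMP, were the most counted genes of nucleotide supply: Dut was at 42.1 and 67.4 CPM in naive-gene cells and 462 and 600 CPM in PD-1 TIM-3 cells, and Tyms at 5.90 and 12.8 against 96.6 and 123 CPM. Dut, Pclaf and Pcna together gave 37.8% and 39.8% of all member UMIs of CD8 cells, so a summed level leans on these genes, and medians over members are given beside it. 3′ counts do not scale with transcript length, but capture can differ between genes.

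Chromatin and control genes included both steep and shallow members. Slbp, which binds histone messages, was shallow but less flat than Cdt1. It was at 64.4 and 62.5 CPM in naive-gene cells, 88.7 and 112 in PD-1 TIM-3 cells and 89.5 and 88.8 in NK cells. Its ratio of PD-1 TIM-3 over naive-gene cells was 1.38 and 1.80. Uhrf1, which passes DNA methylation on to new strands, went from 2.43 and 6.14 to 31.9 and 38.6 CPM. Clspn, which relays the replication checkpoint, went from 3.04 and 7.11 to 40.2 and 54.1 CPM. Dtl, which directs the destruction of Cdt1 protein in S phase, went from 14.3 and 17.0 to 45.1 and 58.1 CPM. Over all 35 members the median ratio of PD-1 TIM-3 over naive-gene cells was 4.69 and 5.01, with 17 and 18 members over 5-fold and 3 and 2 under 2-fold. The shares of all genes past these folds were not computed, so the counts describe only the spread among members. The members under 2-fold were Cdt1, Slbp and, in the WT-labelled library, Mcm4 (1.58).

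**Figure D2:**
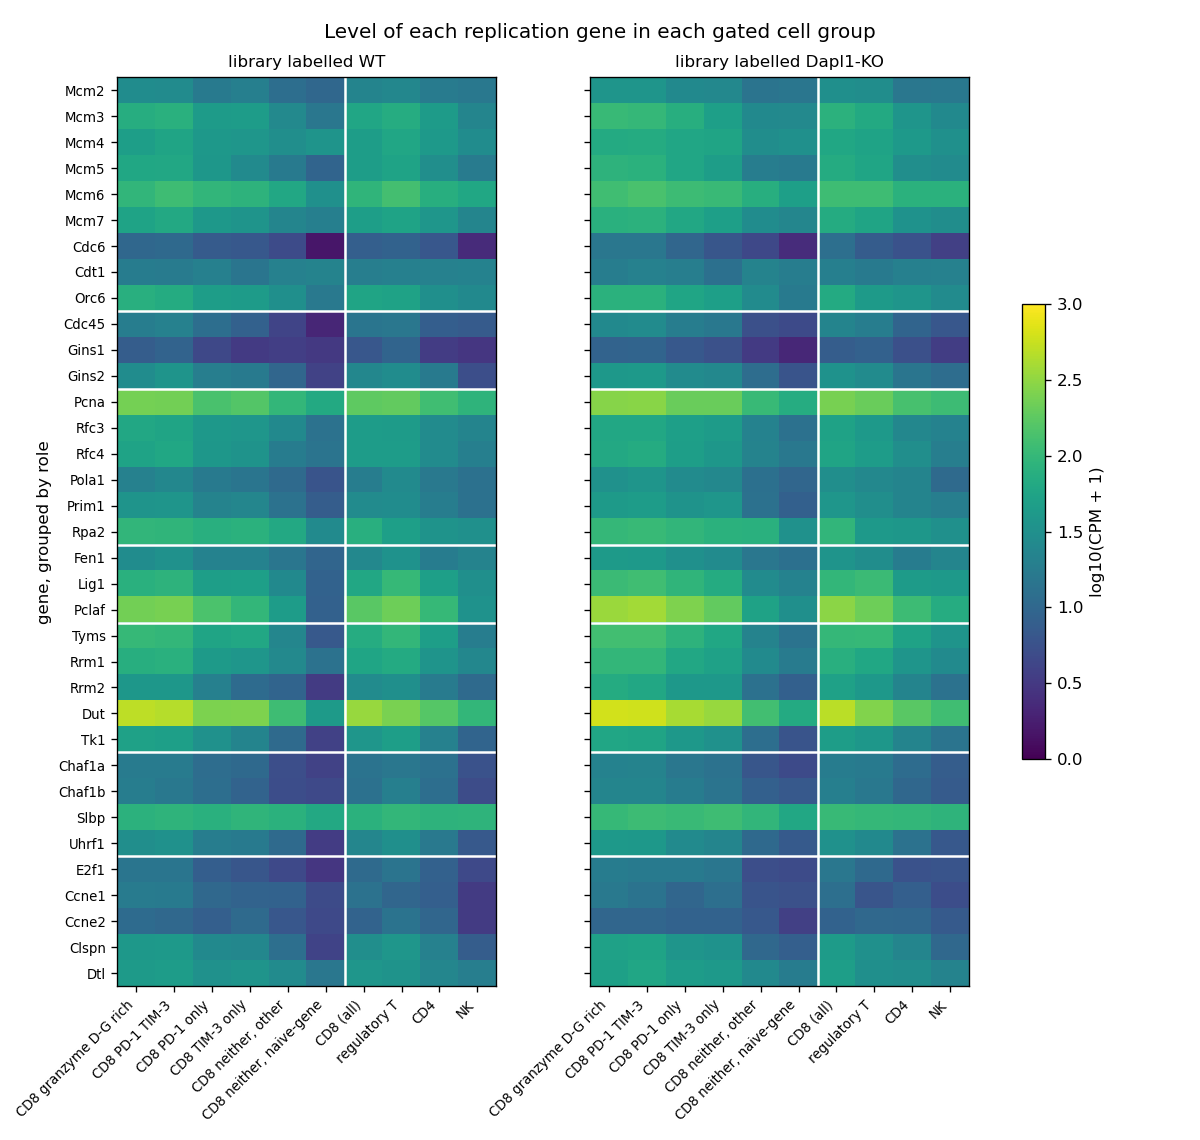
Level of each of the 35 genes (rows, grouped by role in the order of the opening, with white lines between roles) in 6 CD8 states and 4 gates (columns), as log10 of CPM plus 1, in the WT-labelled library (left) and the Dapl1-KO-labelled library (right). The Pclaf row changes strongly between naive-gene cells (7.46 and 30.4 CPM) and PD-1 TIM-3 cells (244 and 382 CPM). The Cdt1 row is nearly even and the Slbp row changes little.

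Between the labels, most members were higher in CD8 cells of the Dapl1-KO-labelled library. Of the 33 members that reached 10 CPM on either side, 27 were higher by a log2 ratio of at least 0.3 and 0 were lower by as much, and 6 lay between. Over all 6661 genes at that level, 15.0% were higher and 9.91% lower by the same limit. The median log2 ratio over the members was 0.47, and over all genes 0.04. Ccne2 and Gins1 were under 10 CPM in both libraries. The CD8 median was above 0 in the 12 alternative settings run for it, from 0.34 to 0.95.

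Rrm2, the regulated subunit of ribonucleotide reductase (ENSMUSG00000020649, chr12:24708241-24714146), had the largest ratio. It was at 26.7 CPM in the WT-labelled library and 51.2 in the Dapl1-KO-labelled library, a log2 ratio of 0.94 (0.86 to 1.02). Pclaf (chr9:65890237-65903266) went from 171 to 299 CPM, a log2 ratio of 0.81 (0.78 to 0.84). Pola1, the catalytic subunit of the priming polymerase (chrX:93304767-93632155), was at 17.5 and 29.2 CPM, a log2 ratio of 0.74 (0.64 to 0.83), Cdc6 at 0.69 (0.54 to 0.84) and Cdc45 at 0.65 (0.54 to 0.76). The rest of nucleotide supply lay lower, with Dut at 0.50, Tyms at 0.47, Rrm1, the partner subunit of Rrm2, at 0.44, and Tk1, the salvage kinase for thymidine, at 0.33.

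At the other end, Ccne1, the cyclin that drives entry into S phase, was at 12.4 and 11.5 CPM, a log2 ratio of -0.11 (-0.24 to 0.02). Cdt1 was at 18.0 and 18.8 CPM, a log2 ratio of 0.06 (-0.04 to 0.16). Both intervals include 0. Rfc3, a clamp loader subunit, was at 0.22 (0.15 to 0.28), Orc6, of the origin recognition complex, at 0.26 (0.21 to 0.32) and Rpa2 at 0.27 (0.22 to 0.32), and Rfc4, another loader subunit, lay just under the limit at 0.30 (0.24 to 0.36). Among the roles, all 5 genes of nucleotide supply, all 4 of chromatin and all 3 of flap processing and clamp binding were past the limit, beside 7 of 9 of licensing and 3 of 6 of clamp, loader and polymerase. All 6 Mcm subunits were past it, between 0.36 for Mcm6 and 0.59 for Mcm5.

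The same genes did not stand apart between the labels in regulatory T cells. There 2 of 32 members were higher by the limit (Rrm2 at 0.32 and Mcm2 at 0.31) and 5 lower (E2f1, Ccne2, Chaf1b, Tk1 and Orc6), beside 8.58% and 15.8% of all genes, and the median was -0.11 beside -0.05 for all genes. Cdc45 was next highest at 0.29 (-0.08 to 0.67). E2f1, a factor that activates many of the other members, was at 13.4 and 9.54 CPM, a log2 ratio of -0.49 (-0.95 to -0.05), from 98 and 75 UMIs. Ccne2 was at -0.49 (-0.95 to -0.03), and Chaf1b, a histone chaperone subunit, at -0.33 (-0.70 to 0.04). Pclaf was at 218 and 219 CPM, a log2 ratio of 0.0065 (-0.09 to 0.11). All 31 members at 10 CPM or more in both gates had a higher ratio in CD8 than in regulatory T cells, beside 66.5% of all genes, and for 27 of them the CD8 interval lay wholly above the regulatory T interval, beside 17.8% of all genes; whether the gates differ was not tested, since each value comes from the same pair of libraries.

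**Figure D3:**
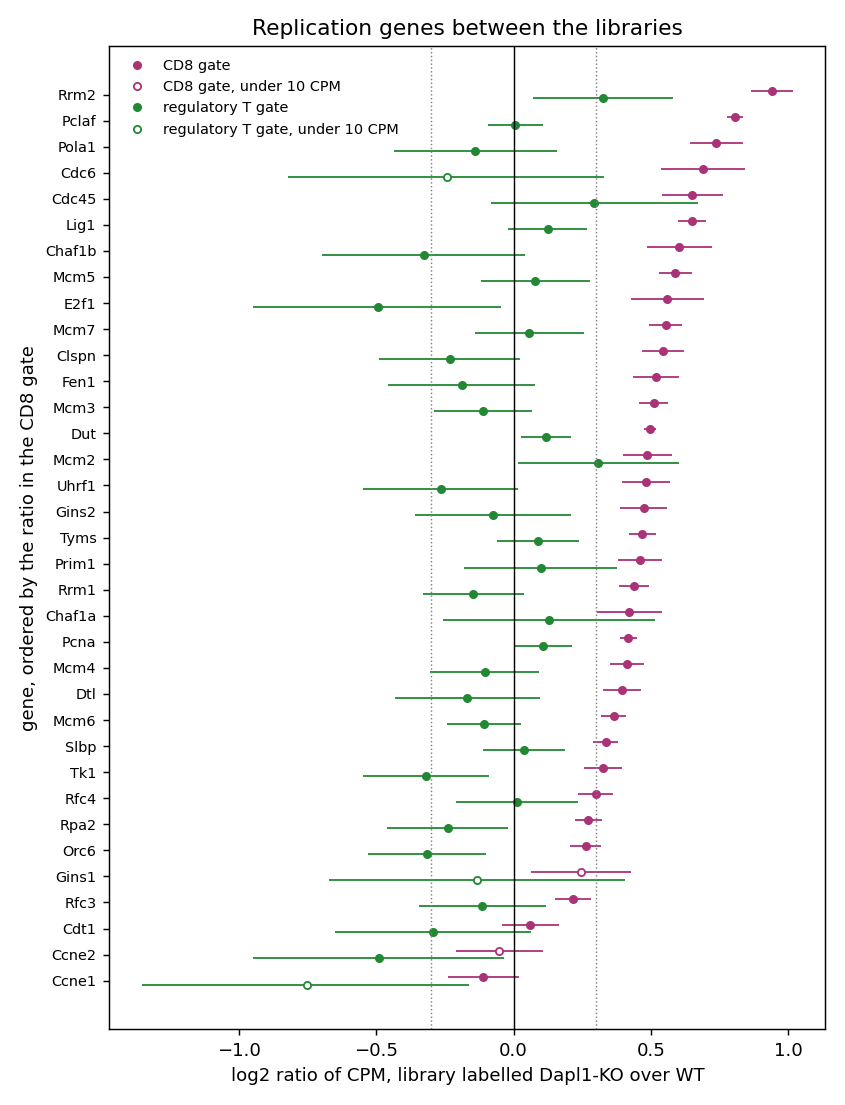
Log2 ratio of CPM, library labelled Dapl1-KO over WT (x axis), for each of the 35 genes (y axis, ordered by the CD8 value) in the CD8 gate (purple) and the regulatory T gate (green); bars are exact 95% intervals, open points are genes under 10 CPM in both libraries, and dotted lines mark 0.3 up and down. The CD8 points run from -0.11 for Ccne1 to 0.94 for Rrm2, and the regulatory T points scatter around 0.

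CD4 and NK cells were too few for most single genes. In CD4 cells 3 of 29 members were higher (Pola1 at 0.49, Rrm2 at 0.34 and Dtl at 0.32) and 0 lower, beside 17.8% and 15.6% of all genes, with a median of 0.06. The lowest were Chaf1b at -0.30 (just inside the limit), Mcm3 at -0.29 and Uhrf1 at -0.26, and of the 6 named here the interval of Pola1 alone excluded 0 (0.0087 to 0.99). In NK cells 12 of 25 were higher and 0 lower, beside 16.7% and 16.8% of all genes, with a median of 0.20. Gins2 led at 1.31 (0.40 to 2.32), from 13 and 47 UMIs, with Pclaf at 1.10 (0.77 to 1.44) and Tyms at 0.99 (0.54 to 1.47). The lowest in NK cells were Pola1 at -0.29 (-0.96 to 0.38), Rfc3 at -0.097 and Rfc4 at -0.073.

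Within CD8 cells the difference between the labels was present in the states with PD-1, TIM-3 or granzymes D to G. It was not particular to them, since naive-gene cells showed it too in the main setting. Members past 0.3 numbered 20 of 34 in granzyme D to G rich cells (all genes 13.6%), 20 of 33 in PD-1 TIM-3 cells (11.7%), 28 of 31 in PD-1 only cells (17.5%) and 24 of 32 in TIM-3 only cells (25.8%). The medians were 0.35, 0.34, 0.60 and 0.47. The PD-1 only median became 0.23 when every deposited barcode was used and 1.12 without the shared ones. In other cells with neither receptor 3 of 26 were past the limit (23.7%), with a median of 0.09, which was -0.59 with all deposited barcodes kept and 0.87 in cells of 10000 to 20000 UMIs. In naive-gene cells 11 of 20 were past it (24.5%), with a median of 0.37, which was -0.0039 with shared barcodes left out. Of the 31 members at 10 CPM or more in each of the first 4 states, 29 were above 0 in all 4, beside 32.5% of all genes at that level. Of all 35 members 30 were, and the exceptions were Ccne1, Ccne2, Cdc6, Cdt1 and Tyms. Past the limit in all 4 were 13 of the 31, beside 5.25% of all genes, namely Mcm2, Mcm4, Mcm5, Mcm7, Cdc45, Pola1, Prim1, Fen1, Lig1, Pclaf, Rrm2, Chaf1b and Clspn.

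Single members moved differently between states. E2f1 was at 6.85 and 15.9 CPM in PD-1 only cells, a log2 ratio of 1.21, and at 13.6 and 16.4 CPM in PD-1 TIM-3 cells, a ratio of 0.27. In the Dapl1-KO-labelled library its level in PD-1 only cells was thus near that in PD-1 TIM-3 cells (log2 ratio between the states 0.044), and in the WT-labelled library it was not (0.99). Lig1 went from 46.8 to 92.0 CPM between the labels in PD-1 only cells, and Rrm2 from 19.2 to 39.0. In naive-gene cells Pclaf had the largest ratio, 2.03, at 7.46 and 30.4 CPM. Whether these ratios differ between states was not tested.

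Per-cell counts show whether a higher sum went with more cells at a high level. Each cell was thinned to 3000 UMIs, and shallower cells (109 and 149 in the CD8 gate) were left out. A cell with at least 10 UMIs of the 35 genes was called replication-high, which is a range of a score and not a cell type. Of CD8 cells, 9.10% (8.27 to 9.98) in the WT-labelled library and 19.2% (18.1 to 20.2) in the Dapl1-KO-labelled library were replication-high, a difference of 10.1 percentage points (8.71 to 11.4). It was 2.41 points with all deposited barcodes kept and 3.10 with shared barcodes left out. Cells near the limit, with 8 to 12 UMIs, were 7.89% and 11.2%. Without thinning, 36.6% and 48.7% of CD8 cells had 10 UMIs or more. With the state shares of the WT-labelled library, the state values of the Dapl1-KO-labelled library gave 16.0%.

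The share differed widely by state. The states were gated on unthinned counts, so depth and state still cannot be told apart here. It was 19.7% and 38.1% in granzyme D to G rich cells, 20.3% and 32.3% in PD-1 TIM-3 cells, 7.58% and 16.9% in PD-1 only cells and 0.15% (2 of 1320 cells) and 1.11% (10 of 903) in naive-gene cells. Regulatory T cells stood at 12.3% and 11.6%, a difference of -0.68 points (-4.35 to 2.93), CD4 cells at 4.66% and 3.98%, and NK cells at 1.60% and 2.69%. The intervals of the difference in CD4 cells (-3.30 to 1.93 points) and in NK cells (-1.10 to 3.07) include 0. Replication-high CD8 cells held on average 13.7 and 15.4 member UMIs, and the other CD8 cells 2.39 and 2.83, so both the number of high cells and the mean in each class were higher in the Dapl1-KO-labelled library.

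**Figure D4:**
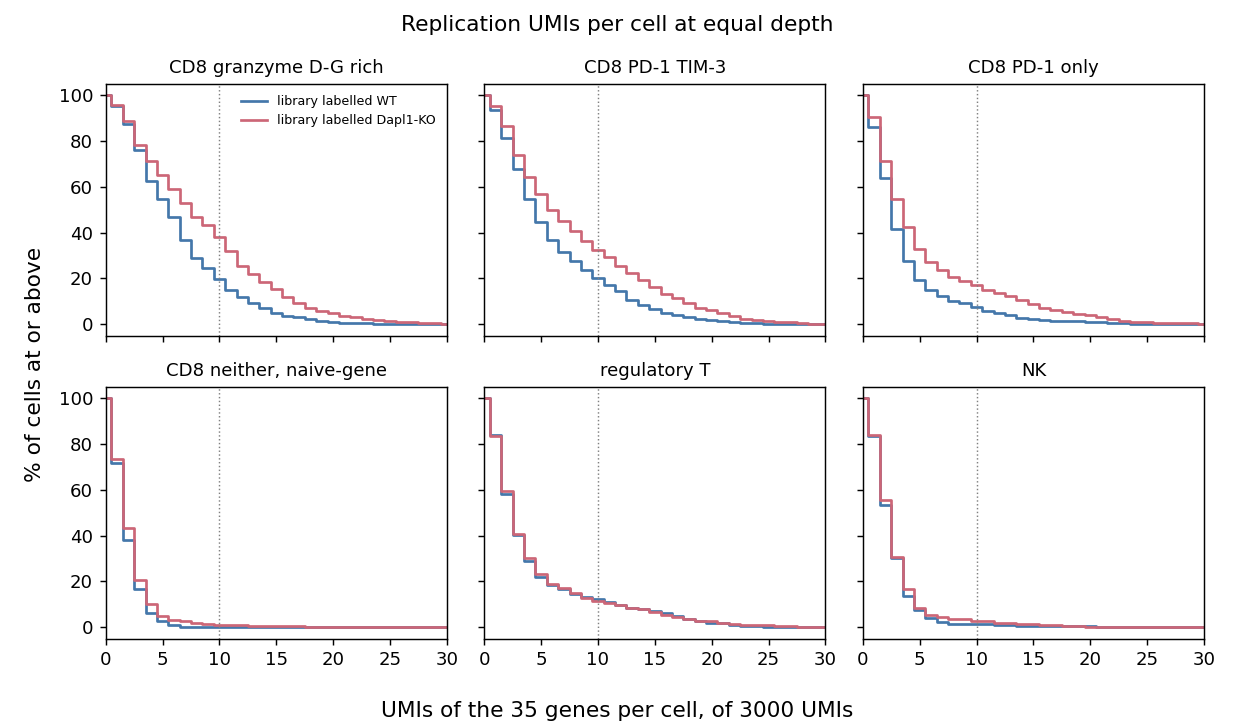
Percent of cells (y axis) with at least a given number of UMIs of the 35 genes among 3000 UMIs of the cell (x axis), in 4 CD8 states, regulatory T cells and NK cells, for the WT-labelled library (blue) and the Dapl1-KO-labelled library (red); the dotted line marks 10 UMIs. States and gates were taken from unthinned counts. At the line the curves stand at 20.3% and 32.3% in PD-1 TIM-3 cells and at 12.3% and 11.6% in regulatory T cells.

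The members differed in how far their UMIs were held in replication-high cells. For this each gene was left out when cells were classed, so the class came from the other 34. By that count 6.02% to 9.05% of CD8 cells were high in the WT-labelled library and 14.2% to 19.1% in the Dapl1-KO-labelled library. The median member had 32.5% and 54.5% of its UMIs in those cells. Cdc6 had 56.8% (39.5 to 72.9, from 37 UMIs) and 78.1% (69.0 to 85.6, from 105), Rrm2 52.1% and 72.6%, Uhrf1 55.8% and 66.6%, and Clspn 45.4% and 70.7%. Cdt1 had 10.9% (7.16 to 15.6) and 28.7% (23.8 to 34.0), Rpa2 15.3% and 28.3%, and Slbp 13.5% and 31.9%. For Cdt1 in the WT-labelled library the interval included the share of cells that were high, so its UMIs were not detectably gathered in those cells at this depth.

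Detection shows the same contrast. Pclaf was detected, at 3000 UMIs per cell, in 68.1% and 76.1% of replication-high CD8 cells, 9.12% and 13.2% of the others and 1.89% and 2.44% of naive-gene cells. Dut was detected in 86.3% and 88.9% of high cells and in 10.5% and 14.4% of naive-gene cells. Slbp was detected in 31.2% and 39.1% of high cells and still in 17.4% and 17.4% of naive-gene cells. Free RNA can place a UMI in a cell that does not express the gene, and its part in the low shares of naive-gene cells was not tested.

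**Figure D5:**
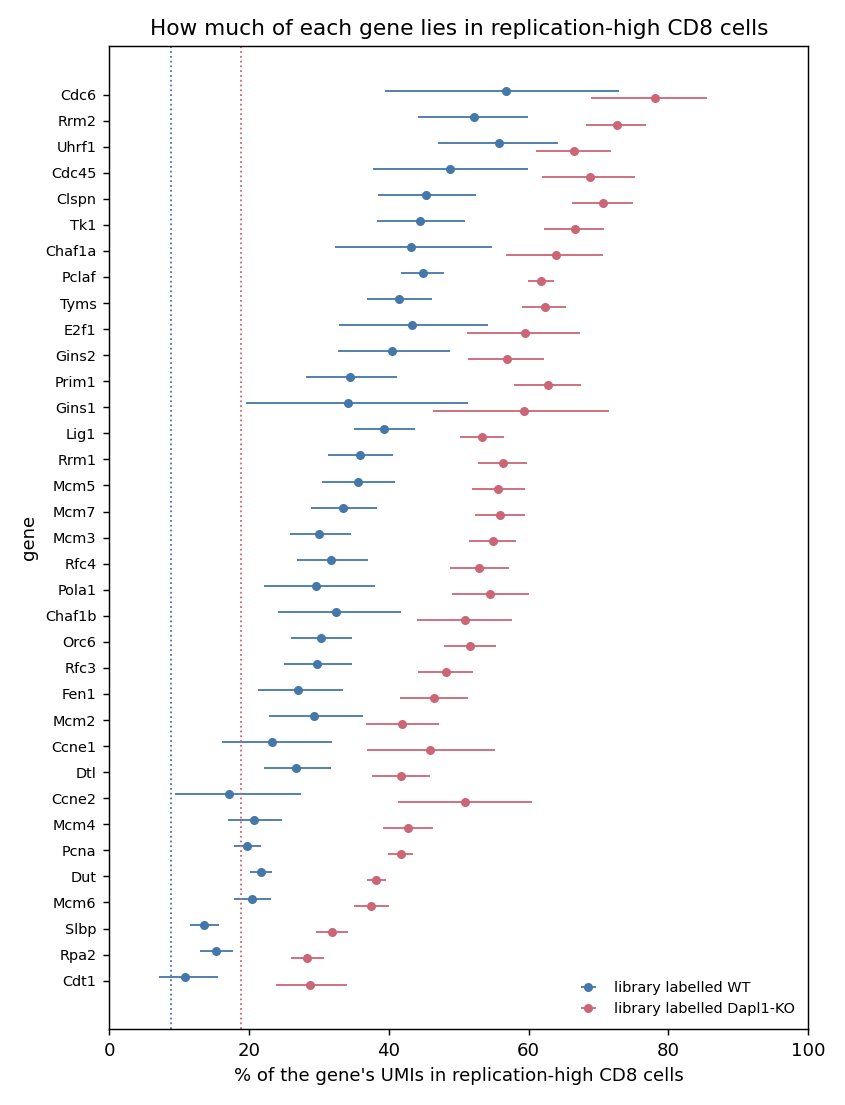
Percent of each gene's UMIs that lay in replication-high CD8 cells (x axis, 0 to 100), with cells classed from the other 34 genes, in the WT-labelled library (blue) and the Dapl1-KO-labelled library (red); bars are exact 95% intervals and dotted lines the median share of cells that were high. Cdc6 stands at 56.8% and 78.1% and Cdt1 at 10.9% and 28.7%.

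The members were also compared between cells high for mitotic genes and replication-high cells low for them. CD8 cells with at least 10 UMIs of the G2 and mitosis list (213 and 528 cells) were set against replication-high cells with under 3 such UMIs (44 to 83 and 132 to 222 cells, classed without the gene itself). Pclaf was higher in the G2 and mitosis cells by a log2 ratio of 0.76 (0.35 to 1.19) and 0.998 (0.78 to 1.23), and Tyms by 1.09 (0.32 to 1.96) and 0.64 (0.26 to 1.04). E2f1 was lower, at -1.76 (-3.21 to -0.35) and -1.65 (-2.59 to -0.73), as were Dut at -0.64 and -0.50, Mcm6 at -0.90 and -0.36, and Mcm7 at -0.71 and -0.41. These 4 members were below 0 with their intervals in both libraries, and Pclaf and Tyms above. The share of all genes with such intervals was not computed. The comparison group was picked by the other members, which raises all of them there. It also changed with the gene left out, from 44 cells for Dut to 83 for Gins1 in the WT-labelled library. Neither the sign of a ratio nor the order among members is thus on a common footing.

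Replication and mitotic genes were not read in the same cells throughout. Of replication-high CD8 cells, 20.3% and 21.0% had under 3 UMIs of the G2 and mitosis list, and 41.8% and 61.0% of the G2 and mitosis high cells were replication-high. CD8 cells with no UMI of that list had 669 and 829 member CPM, those with 1 to 9 had 1399 and 1940, and those with 10 or more had 3067 and 3987. The members were thus higher in the Dapl1-KO-labelled library in each of these classes. In regulatory T cells the same classes stood at 618 and 595, 1418 and 1460, and 3833 and 3765 CPM.

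Genes outside the 35 were taken from lists of the same processes. Of 30 other replication factors, 24 were measured in CD8 cells, 9 were higher between the labels and 0 lower, with a median of 0.24, led by Rpa3 at 0.70, Rfc5 at 0.63, Mcm10 at 0.61 and Tipin at 0.44. Of 14 genes of S phase chromatin and repair 6 were higher and 0 lower (among them Dnmt1 at 0.55 and Asf1b at 0.52). The list of other nucleotide supply, which also holds genes of nucleotide breakdown such as Samhd1, had 2 of 14 higher. Samhd1 was at 0.34, and in regulatory T cells it was also higher, at 0.38 (0.26 to 0.50). Among 19 measured genes of cell cycle control 3 were higher (Ccna2 at 0.59, Cdk4 at 0.38, Gmnn at 0.33) and 3 lower (Myc at -0.71, Cdkn1b, a kinase inhibitor of resting cells, at -0.34, and Cdc25a at -0.31). Of 23 measured genes of G2 and mitosis 16 were higher and 0 lower, with a median of 0.38, led by Top2a at 0.71. The shares of all genes past the limit are those given for the CD8 gate above.

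CD8 cells labelled Dapl1-KO held fewer naive-gene cells (16.1% against 29.0% of CD8 cells), and without the naive-gene cells the CD8 median was 0.38. Among CD8 cells with a Y-linked UMI and no Xist (658 and 4338 cells) the members stood at 1467 and 2720 CPM. Their median log2 ratio was 0.95, with 30 members higher, and the share of all genes higher in those cells was not computed. Why 658 cells labelled WT carry that pattern was not tested. Melanocytic genes (4 genes, summed) were at 1.99 to 4.56 CPM in the 4 gates of the WT-labelled library and at 8.65 to 16.8 CPM in the Dapl1-KO-labelled library, and macrophage genes (7 genes) at 7.46 to 9.84 and 7.95 to 11.1 CPM. Melanocytic genes stood at 4.39 and 12.9 CPM in regulatory T cells, where the summed members differed by a log2 ratio of -0.013. The part of free RNA in the result was not tested. The copies of shared barcodes that were left out held 2699 member CPM in the WT-labelled library and 2053 in the Dapl1-KO-labelled library. With all deposited barcodes kept the CD8 median was 0.34, and with every shared barcode left out of both libraries it was 0.72.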

How the data were processed

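The files the authors deposited hold a whole-number UMI count for each gene in each barcode, made with Cell Ranger 5.0.0 on builds mm10 and GRCm38 per the submitters' processing notes; further settings are not given in the sources used here. The smallest barcode total was 500 UMIs in each library. Of a barcode found in both libraries only the copy with more UMIs was used, provided that its total was 2 times the other total or more, and 21 barcodes were left out as unclear. A cell needed 500 detected genes, with no more than 10% of its counts from mitochondrial genes. No doublet caller was run; cells with at least 3 UMIs of macrophage, B cell or melanocytic genes (390 and 645) were left out of all gates, and 1 alternative leaves out the 5% of cells with the most UMIs.

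Counts were summed per gate and library and divided by the gate total to give CPM. Ratios set the Dapl1-KO-labelled library over the WT-labelled one, with exact conditional binomial intervals; sums have exact Poisson and shares exact Clopper-Pearson intervals. A member was measured at 10 CPM or more in a library. UMIs were thinned without replacement with a fixed seed. Named genes follow a rule: the 2 highest members of each role, the 5 highest and 5 lowest ratios in CD8 cells, the 3 highest and 3 lowest in the other gates, and up to 4 genes of each other list. Other members named, Cdc25a and Gmnn were picked after their values were seen. Some genes of the other lists are not reported here by name. The members and lists were chosen with earlier results of these data known. Gene positions come from the GRCm38 annotation. Reads of Tyms and Pcna could be shared with annotated pseudogenes, so their values are uncertain to that extent. The calculation was tested on simulated counts. Python 3.11.15, numpy 2.4.6 and scipy 1.17.1 were used.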

Additional observations from a re-analysis of the deposited data

Results flagged for a closer look

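Of the members whose CD8 ratio was above 0 with its interval, 4 lay on the other side of 0 with their interval in regulatory T cells. The share of all genes with this pattern was not computed. By a looser rule, 66.5% of all genes at 10 CPM or more in both gates had a higher ratio in CD8 than in regulatory T cells. In regulatory T cells 5 of 32 members were lower by at least 0.3 log2, beside 15.8% of all genes. E2f1 had a log2 ratio (Dapl1-KO over WT label) of -0.49 in regulatory T cells and 0.56 in CD8 cells, Tk1 -0.32 and 0.33, Orc6 -0.31 and 0.26, and Rpa2 -0.24 and 0.27. These opposite directions rest on 1 library per label and were not tested. The regulatory T values come from 75 to 383 UMIs per gene and library.

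Cells outside every gate, which no comparison above uses, also held the members, at 1697 CPM in the WT-labelled library (3628 cells) and 2031 CPM in the Dapl1-KO-labelled library (3591 cells). Their depth was a median of 5984 and 7841 UMIs.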

How the results depend on the processing

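With 1 library per label no test supports any value, counting intervals do not cover differences between mice, and low counts limit the single members in CD4 and NK cells. No paired analysis was possible because each label has 1 library. Over 22 alternatives, 248 values were recomputed. Of those that answer a comparison, 114 were classed as steady, 61 as moved and 7 as turned in direction, and of the others 48, 17 and 1. Steady stands for a move of less than the counting interval, but counts of members carry no such interval. A turn was called only where the main interval excluded equality, so other changes of sign are among the steady and moved values. The regulatory T median went from -0.11 to 0.16 without shared barcodes (moved). The CD4 share difference went from -0.68 to 1.77 points with all deposited barcodes (steady). Each pair below gives the WT-labelled library first, and the cause of each move was not tested.

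The median log2 ratio of the members between the labels in CD8 cells (0.47) was 0.34 with all deposited barcodes, 0.72 without shared barcodes, 0.62 without the 5% of cells with the most UMIs, 0.95 in cells with a Y-linked UMI and no Xist, 0.61 from thinned counts and 0.65 as a mean of per-cell CPM. It was 0.38 without naive-gene cells and 0.83 in cells of 10000 to 20000 UMIs, both chosen after seeing the data, as was a second draw of UMIs. In regulatory T cells it was 0.16 without shared barcodes and 0.18 in the depth band, in CD4 cells 1.46 and in NK cells 1.28 in Y-linked cells, and in NK cells 0.77 in the depth band. In naive-gene cells it was -0.0039 without shared barcodes. With a limit of 0.5 log2, 13 members were higher in CD8 cells, and the share of all genes past that limit was not computed.

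The difference in replication-high CD8 cells (10.1 points) was 2.41 with all barcodes, 3.10 without shared ones, 15.6 in Y-linked cells, 13.6 at 5 member UMIs and 2.59 at 20, and that of CD4 cells was 4.95 in Y-linked cells.

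PD-1 TIM-3 over PD-1 only cells (0.68 and 0.45) gave 0.34 and 0.42 with all barcodes, 0.39 and 0.32 without shared ones, 0.59 and 0.35 without the deepest cells, 0.57 and 0.42 in Y-linked cells, -0.032 and -0.091 from thinned counts, 0.80 and 0.61 as a mean over cells, 0.55 and 0.32 with receptors from 2 UMIs, 0.35 and 0.0021 in the depth band, and 0.71 in the WT-labelled library with granzyme cells from 10 UMIs.

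Granzyme D to G rich over PD-1 TIM-3 cells (-0.028 and -0.032) gave -0.26 and -0.0037 without shared barcodes, -0.14 and -0.11 without the deepest cells, 0.17 and -0.060 in Y-linked cells, 0.19 and 0.032 from thinned counts, 0.15 and 0.096 as a mean over cells, -0.14 and -0.080 with receptors from 2 UMIs, and -0.25 and -0.37 in the depth band. In the Dapl1-KO-labelled library it was -0.053 with all barcodes, and -0.014 and -0.062 with granzyme cells from 10 and 50 UMIs.

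PD-1 only cells over cells with neither receptor (1.37 and 1.60) gave 1.13 and 1.44 with all barcodes, 0.51 and 1.05 without shared ones, 0.71 and 0.57 from thinned counts, 0.94 and 1.24 as a mean over cells, 1.61 and 1.77 with receptors from 2 UMIs, and 0.88 and 1.53 in the depth band. In the WT-labelled library it was 1.30 without the deepest cells and 1.21 in Y-linked cells.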

Other observations

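Outside the fixed members, the genes that went most strongly with them in single CD8 cells were of neighbouring processes. At 3000 UMIs per cell, and at 50 CPM or more in replication-high cells, the genes with the highest log2 ratios of replication-high over other CD8 cells included Cenph, of the kinetochore (3.80 in the WT-labelled library and 3.42 in the Dapl1-KO-labelled library), the histone gene Hist1h2ab (3.30 and 3.30), and Ccna2, the cyclin of S phase and G2 (3.66 and 3.21). Spc24, Ncapg2, Mki67, Hist1h3c, Nusap1, Smc2 and Kif15 followed, each between 2.83 and 3.30 in both libraries. Hist1h2ab was at 177 CPM in replication-high cells labelled WT and 104 CPM in those labelled Dapl1-KO, and Hist1h3c at 128 and 88.8, while Mki67 was at 271 and 297.

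NK cells showed the mitotic list further apart between the labels than the 35 members. Of 13 measured genes of G2 and mitosis 12 were higher in the Dapl1-KO-labelled library and 0 lower, beside 16.7% and 16.8% of all genes, with a median log2 ratio of 1.21, and the summed list stood at 274 and 565 CPM. The members stood at 785 and 978 CPM in the same cells. G2 and mitosis high cells numbered 2 of 376 and 8 of 558 NK cells at 3000 UMIs.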
